A study of Mus musculus with 8 samples.

Results

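HOX cluster genes are the homeobox genes of the HoxA, HoxB, HoxC and HoxD clusters, and their transcript levels were read in N33 mouse embryonic stem cells (ESCs) grown in 4 culture conditions. Members were chosen by name alone, as every gene whose symbol is Hox followed by a cluster letter from a to d and a paralogue number. The rule found 39 genes of the 20278 genes listed in at least 1 library, and a gene missing from a library's list was taken as 0 there. The HoxA cluster held 11 members, HoxB 10, HoxC 9 and HoxD 9. Of the 39 members, 24 had enough reads to be tested between conditions (at least 10 counts in at least 2 libraries).

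The study sequenced mRNA from N33, 1 ESC line of strain C57BL/6 in the labels and C57BL/6J in the study's methods, as duplicates described as biological, so that the 8 samples form 4 groups of 2. The group −F grew in serum on gelatin without feeders, and the group F grew in serum on a layer of mitomycin C-treated mouse embryonic fibroblasts (MEFs, the feeders). The group F2i grew on feeders in serum with 2i added, and the group NB2i grew in N2B27 medium with 2i, without serum and without feeders, on poly-L-ornithine and laminin. 2i is a pair of inhibitors, CHIR99021 against Gsk3β and PD0325901 against Mek. Leukaemia inhibitory factor was present at 1000 U/ml in each medium, and per the labels, ESCs grown on feeders were parted from them by a difference in how the cells adhere to the dish. Because NB2i differs from F2i in feeders, serum, basal medium and coating at once, these cannot be told apart in that comparison. Total expected counts per library lay between 20129641 and 20664488, and the 10 ESC markers (Pou5f1, Nanog, Dppa5a and others) summed to between 4139.8 and 4845 FPKM in every library. No library stood apart from its duplicate. The samples are bulk RNA, so fewer cells of a type and less RNA per cell cannot be told apart.

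HOX proteins are transcription factors that give cells of the embryo their position along the head-to-tail axis and along the limbs. Within a cluster the genes lie in paralogue order, and genes of low number act in the hindbrain and neck while genes of high number act in the lumbar, sacral and tail region, the limb ends and the genitals. In ESCs the 4 clusters are covered by Polycomb repressive complexes and are nearly silent, while fibroblasts of the trunk and limbs keep the HOX genes of the place they came from.

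What makes these genes a family is the homeobox, the stretch of 180 bases that encodes the DNA-binding homeodomain. It was found in a coding exon of all 39 members. The homeoboxes of 5 members are printed here, all among those with the highest mean level over the 8 samples, because many of the differences between conditions turn on these genes. They were read from GENCODE transcripts on GRCm38 (mm10), 5′ to 3′ on the coding strand, and capitals mark the 18 bases that encode the conserved core of the recognition helix.
Hoxb9, chr11:96274659-96274838, plus strand: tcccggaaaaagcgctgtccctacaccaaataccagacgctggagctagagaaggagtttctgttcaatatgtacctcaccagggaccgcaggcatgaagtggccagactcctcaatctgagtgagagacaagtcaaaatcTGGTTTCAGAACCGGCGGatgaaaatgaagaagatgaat
Hoxc4, chr15:103035663-103035842, plus strand: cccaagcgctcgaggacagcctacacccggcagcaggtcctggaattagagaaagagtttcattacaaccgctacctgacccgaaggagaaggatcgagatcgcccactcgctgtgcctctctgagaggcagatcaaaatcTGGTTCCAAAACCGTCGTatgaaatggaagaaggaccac
Hoxc8, chr15:102992571-102992750, plus strand: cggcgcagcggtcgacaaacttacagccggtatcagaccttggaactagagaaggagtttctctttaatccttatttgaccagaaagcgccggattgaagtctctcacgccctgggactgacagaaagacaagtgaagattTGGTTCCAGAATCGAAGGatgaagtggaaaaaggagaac
Hoxc12, chr15:102938308-102938487, plus strand: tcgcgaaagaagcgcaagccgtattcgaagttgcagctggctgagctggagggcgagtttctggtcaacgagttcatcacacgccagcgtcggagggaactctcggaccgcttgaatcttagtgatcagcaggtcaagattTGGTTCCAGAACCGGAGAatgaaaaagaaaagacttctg
Hoxc13, chr15:102927210-102927389, plus strand: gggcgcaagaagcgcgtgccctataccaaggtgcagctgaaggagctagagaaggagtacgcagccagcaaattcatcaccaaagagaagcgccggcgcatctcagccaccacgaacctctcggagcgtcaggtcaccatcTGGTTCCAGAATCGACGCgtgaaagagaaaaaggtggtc

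Among these, Hoxc12 and Hoxc13, neighbours in their cluster, shared 62.2% of homeobox bases, and Hoxc4 and Hoxc12 shared 51.1%. Over all 741 pairs of members identity ranged from 46.1% to 93.9%, with a median of 61.1%. Reads of 50 bases can nevertheless separate the members, since 4 pairs had any stretch of 50 bases in common. Hoxd3 and Hoxd4 shared 339 such stretches and Hoxc5 and Hoxc10 shared 119, through exons that the annotation gives to both genes. Hoxa6 and Hoxb4 shared 3, and Hoxb9 and Hoxc9 shared 1. By the annotation, the counts of Hoxd3, Hoxd4, Hoxc5 and Hoxc10 are uncertain to that extent. The deposited counts of Hoxd4, Hoxc5 and Hoxc10 were whole numbers in every library. Of 257 HOX counts above 0, 42 were not whole, in 10 members that included Hoxb9, Hoxc8 and Hoxb4. The uncertainty may therefore not be limited to the pairs above. Antisense transcripts are a further limit, as use of strand in the counting is not given in the sources used here. Hoxb3os covers 52.9% of the exon bases of Hoxb3 and 27.3% of those of Hoxb2 on the opposite strand, and Hoxa11os covers 35.0% of those of Hoxa11.

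HOX transcripts were scarce in −F, more abundant in F, and most abundant in F2i and NB2i. Levels are given in FPKM, read fragments scaled for the length of the transcript and the size of the library, so that genes can be compared with each other. The 39 members summed to 4.5 and 4.7 FPKM in the −F samples, 11.8 and 11.3 in F, 23.7 and 22.5 in F2i, and 24.97 and 25.3 in NB2i. No member reached a group mean of 1 FPKM in −F. Hoxb9, Hoxc4, Hoxc6, Hoxc8 and Hoxc13 were among those that did so in F2i, and 4 members did so in NB2i (Hoxb9, Hoxc4, Hoxc12 and Hoxc13). Hoxb9, Hoxc4 and Hoxc13 were in both of these sets. Members without a single count numbered 5 in −F, 3 in F2i and 9 in NB2i, while every member had counts in F.

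**Figure D1:**
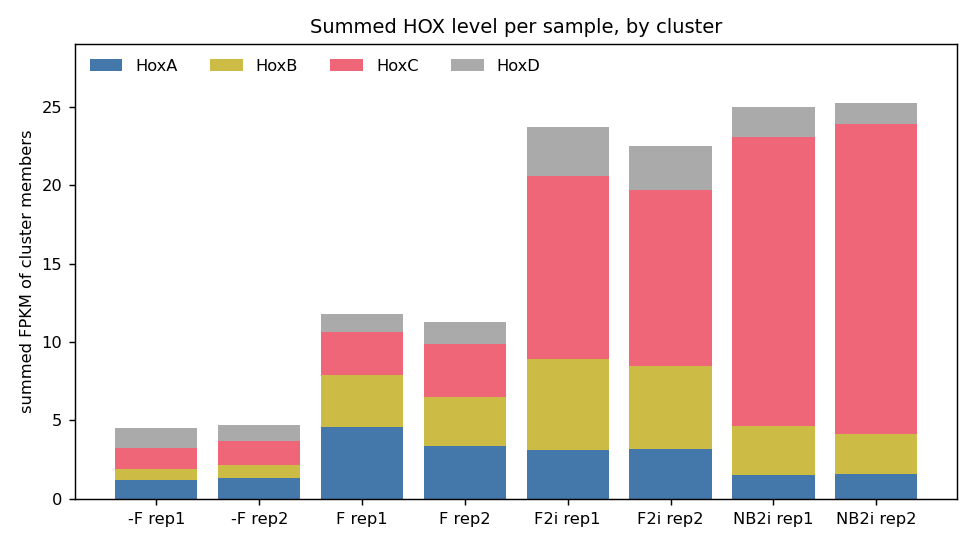
Summed FPKM of the 39 HOX genes in each of the 8 samples, stacked by cluster. The HoxC part grows from 1.31 and 1.56 FPKM in −F to 18.4 and 19.8 FPKM in NB2i.

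The HoxC cluster (chr15:102921131-103036856) carried most of the gain with 2i. Its 9 members summed to 1.44 ± 0.18 FPKM (SD, n = 2) in −F, 3.05 ± 0.47 in F, 11.5 ± 0.35 in F2i and 19.1 ± 0.94 in NB2i. That was 31.2% of the HOX sum in −F, 26.5% in F, 49.6% in F2i and 76.0% in NB2i. HoxB (chr11:96194316-96368254) was highest in F2i, at 5.55 ± 0.33 FPKM, against 0.74 ± 0.057 in −F. HoxD (chr2:74668225-74765142) was also highest in F2i, at 2.96 ± 0.23 FPKM, against 1.15 ± 0.19 in −F.

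By paralogue number, posterior members made up more of the sum with 2i. The 16 members numbered 9 to 13 made up 44.2% ± 2.28 of the HOX sum in −F, 32.1% ± 1.98 in F, 55.1% ± 0.47 in F2i and 67.6% ± 2.09 in NB2i. Within NB2i the paralogue groups 13, 12 and 4 summed to 7.35, 6.21 and 5.72 FPKM, and the other 10 groups each lay at or below 2.08 FPKM. Paralogue group 2, which patterns the hindbrain and branchial arches, had no counts in NB2i and 0.595 ± 0.163 FPKM in F2i.

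**Figure D2:**
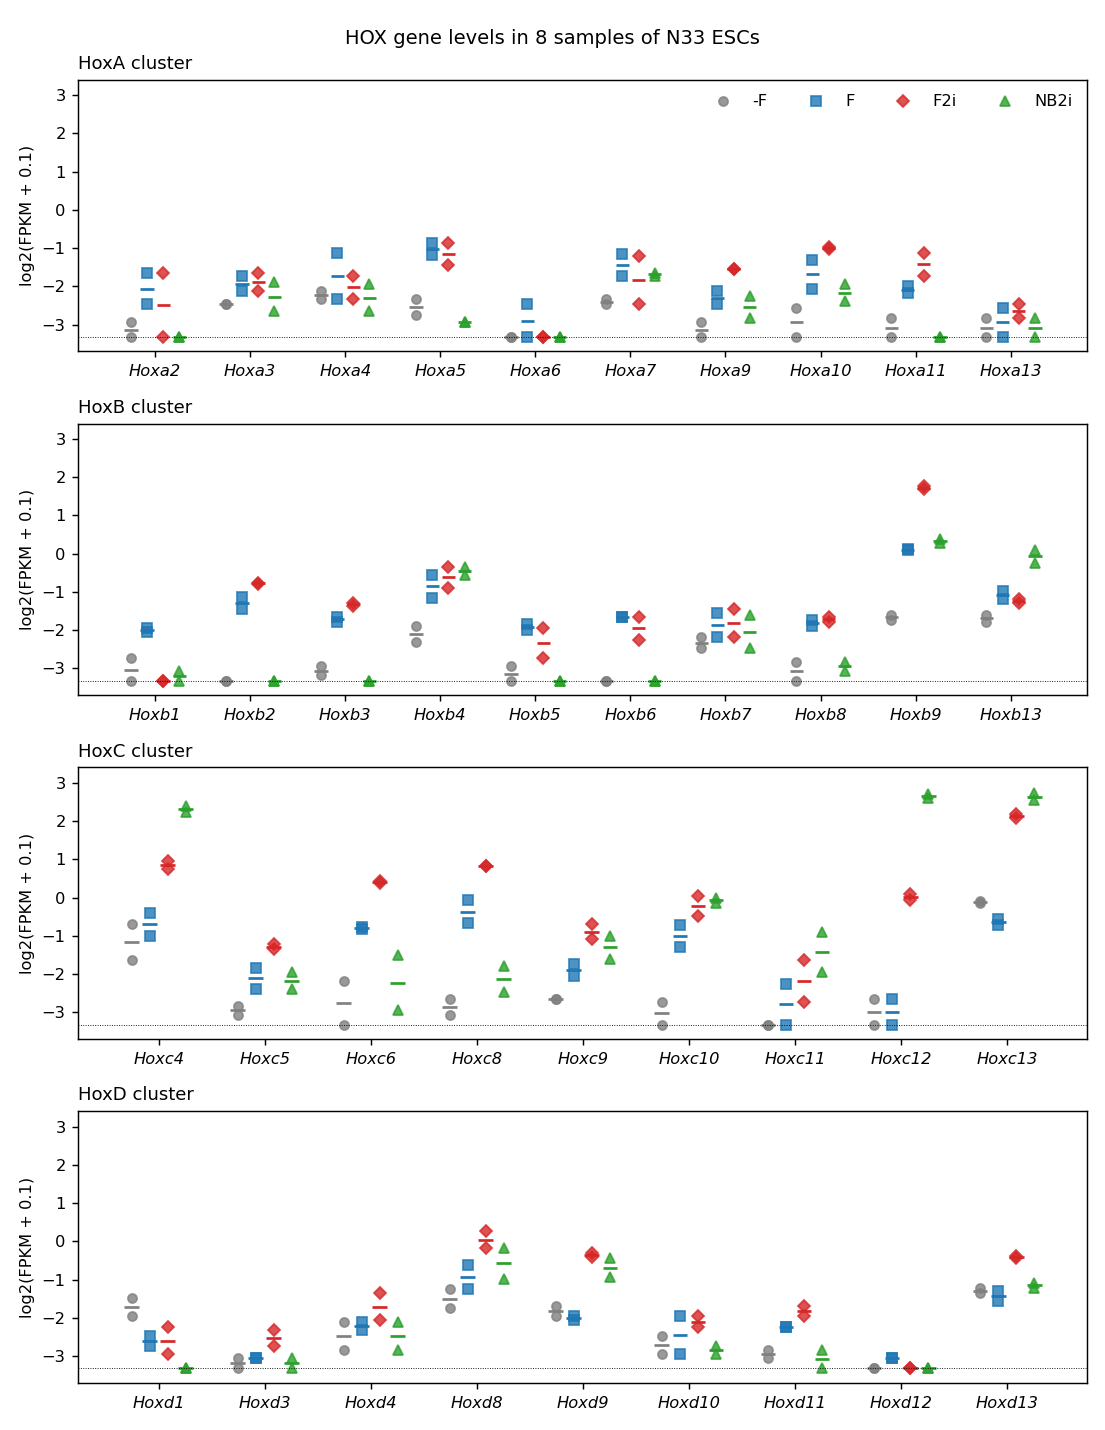
Level of HOX genes in each sample, as log2(FPKM + 0.1), with 1 panel per cluster and genes in paralogue order. Points are samples, short bars are the means of the 2 samples of a group on this scale, and the dotted line marks 0 FPKM. Hoxc12, Hoxc13 and Hoxc4 reach the highest points, all in NB2i.

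Within HoxC, genes at both ends of the cluster, Hoxc13, Hoxc12 and Hoxc4, were highest in NB2i, while Hoxc8, Hoxc6 and Hoxc5 were highest in F2i. Hoxc13, needed for hair and nail keratins, read 0.84 and 0.80 FPKM in −F, 0.51 and 0.58 in F, 4.48 and 4.13 in F2i, and 5.71 and 6.53 in NB2i. Hoxc12, its neighbour, read 0.06 and 0 FPKM in −F, 0 and 0.06 in F, 0.85 and 0.96 in F2i, and 6.01 and 6.41 in NB2i. Hoxc4, at the other end and a gene of the neck vertebrae and of B cells, read 0.22 and 0.52 FPKM in −F, 0.40 and 0.66 in F, 1.83 and 1.59 in F2i, and 5.13 and 4.65 in NB2i. For Hoxc12, Hoxc13 and Hoxc4 the samples with 2i lay above every sample without it, and NB2i lay above F2i without overlap. In NB2i, Hoxc12 and Hoxc13 did not differ beyond their spread (6.21 ± 0.28 and 6.12 ± 0.58 FPKM), and both lay above Hoxc4 (4.89 ± 0.34).

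Hoxc8 and Hoxc6, which specify motor neurons at forelimb level, had the opposite order between the last 2 groups. Hoxc8 read 0.06 and 0.02 FPKM in −F, 0.53 and 0.85 in F, 1.66 in both samples of F2i, and 0.08 and 0.19 in NB2i. Hoxc6 read 0 and 0.12 FPKM in −F, 0.47 and 0.49 in F, 1.19 and 1.24 in F2i, and 0.03 and 0.25 in NB2i. Both genes were thus higher in every sample with feeders than in any sample without them. Hoxc5, a gene of the neck region, followed this order at a lower level, with 0.02 and 0.04 FPKM in −F, 0.18 and 0.09 in F, 0.33 and 0.29 in F2i, and 0.09 and 0.16 in NB2i, and its F and NB2i samples overlapped.

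Hoxc10 and Hoxc9, which specify lumbar and thoracic motor neurons, were lowest in −F. Hoxc10 read 0.05 and 0 FPKM in −F, 0.31 and 0.51 in F, 0.62 and 0.92 in F2i, and 0.81 and 0.89 in NB2i. Hoxc9 read 0.06 FPKM in both samples of −F, 0.20 and 0.14 in F, 0.52 and 0.37 in F2i, and 0.40 and 0.23 in NB2i. F2i and NB2i overlapped for both genes. Hoxc11, between Hoxc10 and Hoxc12, stayed under the count filter, with a highest group mean of 0.30 ± 0.20 FPKM in NB2i and no counts in −F.

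**Figure D3:**
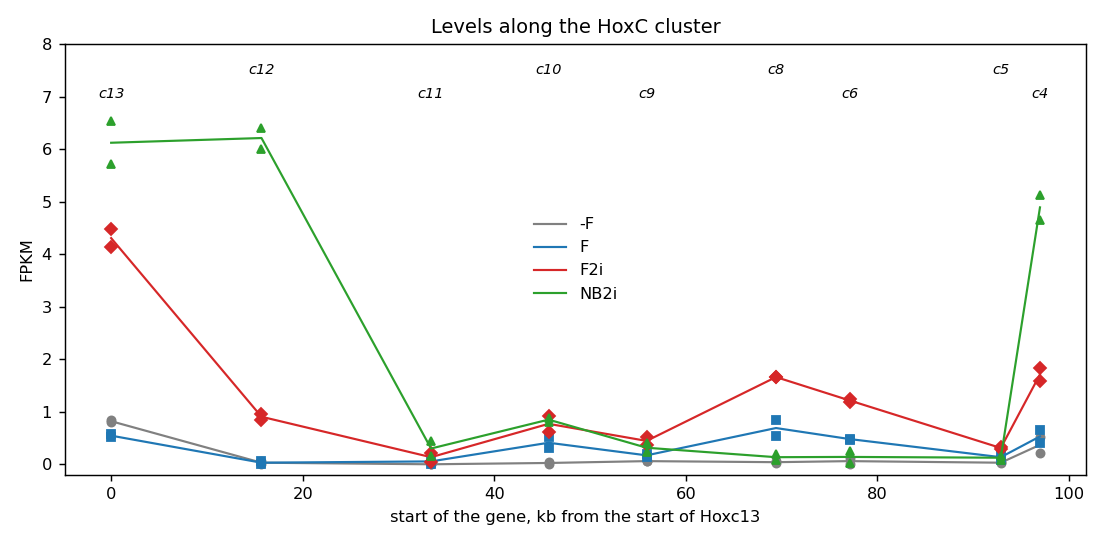
FPKM along the HoxC cluster, with each gene placed by the distance of its start from the start of Hoxc13 in kb. Points are the 2 samples of each condition and lines join their means. NB2i peaks at Hoxc13, Hoxc12 and Hoxc4, and F2i has a further rise at Hoxc8 and Hoxc6, where both NB2i samples are at or below 0.25 FPKM.

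In HoxB, Hoxb9 was the most abundant member, and 5 members had counts in feeder cultures that were absent or nearly so without feeders. Hoxb9, a gene of the rib cage, read 0.20 and 0.23 FPKM in −F, 0.97 and 0.98 in F, 3.29 and 3.11 in F2i, and 1.2 and 1.11 in NB2i. The 4 groups did not overlap for this gene, and F2i was the highest. Hoxb2, which acts in the hindbrain, had no counts in the 4 feeder-free samples, 0.27 and 0.36 FPKM in F, and 0.49 and 0.48 in F2i. Hoxb3, which acts in the hindbrain and pharynx, read 0.01 and 0.03 FPKM in −F, 0.22 and 0.19 in F, 0.31 and 0.29 in F2i, and 0 in both NB2i samples. These values are subject to the antisense overlap given above.

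Hoxb8, a gene of the trunk and of blood progenitors, read 0.04 and 0 FPKM in −F, 0.17 and 0.20 in F, 0.19 and 0.22 in F2i, and 0.04 and 0.02 in NB2i. Hoxb5 and Hoxb6, both under the count filter, had 1 count between them in the 4 feeder-free samples. Hoxb4 and Hoxb13 differed from these genes in that their mean in NB2i, without feeders, was no lower than in F or F2i. Hoxb4, known for expanding blood stem cells, read 0.10 and 0.17 FPKM in −F, 0.58 and 0.35 in F, 0.69 and 0.44 in F2i, and 0.68 and 0.58 in NB2i, and the last 3 groups overlapped. Hoxb13, a gene of the tail and the prostate, read 0.19 and 0.23 FPKM in −F, 0.34 and 0.41 in F, 0.31 and 0.34 in F2i, and 0.97 and 0.75 in NB2i, which lay above every other sample. The remaining HoxB members, Hoxb1 and Hoxb7, had group means of at most 0.195 FPKM.

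In HoxA, Hoxa5 was higher in every sample with feeders than in any sample without them. Hoxa5, needed for the lung and the neck vertebrae, read 0.10 and 0.05 FPKM in −F, 0.45 and 0.34 in F, 0.27 and 0.45 in F2i, and 0.03 in both NB2i samples. Hoxa9 and Hoxa10, which act in blood progenitors and the reproductive tract, were highest in F2i. Hoxa9 read 0 and 0.03 FPKM in −F, 0.08 and 0.13 in F, 0.24 in both F2i samples, and 0.11 and 0.04 in NB2i. Hoxa10 read 0.07 and 0 FPKM in −F, 0.30 and 0.14 in F, 0.39 and 0.41 in F2i, and 0.09 and 0.16 in NB2i. For both genes F2i lay above all other samples, and F overlapped NB2i. Hoxa3 and Hoxa7 were tested and not called in any comparison, with group means of 0.08 to 0.275 FPKM. The members under the count filter (Hoxa2, Hoxa4, Hoxa6, Hoxa11 and Hoxa13) had group means of at most 0.28 FPKM, the highest being that of Hoxa11 in F2i.

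In HoxD, Hoxd8 and Hoxd9 were higher with 2i, with or without feeders. Hoxd8, a trunk gene, read 0.32 and 0.20 FPKM in −F, 0.32 and 0.55 in F, 1.10 and 0.79 in F2i, and 0.78 and 0.41 in NB2i, with overlap between F and NB2i. Hoxd9, which acts in the forelimb and lumbar region, read 0.21 and 0.16 FPKM in −F, 0.16 and 0.14 in F, 0.71 and 0.65 in F2i, and 0.64 and 0.42 in NB2i, and here both groups with 2i lay above both groups without it. Hoxd13, which forms the digits, read 0.29 and 0.33 FPKM in −F, 0.24 and 0.31 in F, 0.64 and 0.67 in F2i, and 0.33 and 0.37 in NB2i, so that F2i stood above the other samples. Hoxd11, a gene of the forearm, read 0.02 and 0.04 FPKM in −F, 0.11 in both samples of F, 0.16 and 0.21 in F2i, and 0.04 and 0 in NB2i, higher in each feeder sample than in each feeder-free one. The 5 members under the count filter (Hoxd1, Hoxd3, Hoxd4, Hoxd10 and Hoxd12) had group means of at most 0.215 FPKM.

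The first comparison, F against −F, asked what feeders change in serum, and 14 of the 24 HOX genes tested were higher on feeders. They included Hoxa5, Hoxa9, Hoxa10, Hoxb2, Hoxb3, Hoxb4, Hoxb8, Hoxb9, Hoxc5, Hoxc6, Hoxc8, Hoxc10 and Hoxd11, and came from all 4 clusters. A gene was called when edgeR's quasi-likelihood test gave a Benjamini-Hochberg adjusted p under 0.05 over all genes and a fold change of at least 2. Over the 15287 genes tested, 5.59% were called higher and 1.65% lower. The median log2 fold change of the tested HOX genes was 1.91, against 2.7e-05 over all genes tested. Of the 24, 12 passed the count filter on the F and −F libraries alone, and the others entered with counts from F2i or NB2i. A gene with few counts in −F had little room to be called lower, so the direction of the calls and the median are partly set by the filter. Hoxb9 rose by 2.18 ± 0.26 (SE) on the log2 scale (adjusted p = 6.7e-07) in the edgeR fit.

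Several of these genes had few counts without feeders, and their fold is known within wide limits. Hoxc8 had 4 counts in −F and 67 in F, a ratio of 16.8 (95% exact interval 6.26 to 63.4, counting error only). Its log2 fold change was 4.01 ± 0.53 (edgeR, adjusted p = 2.9e-06), and 4.92 without −F replicate 1. Hoxc6 had 4 counts in −F, all in replicate 2, and 31 in F, a ratio of 7.76 (2.74 to 30.3). Its log2 fold change of 2.90 ± 0.72 (edgeR, adjusted p = 0.0028) became 1.94 without −F replicate 1 and 6.95 without −F replicate 2, the latter a fit against no counts. Hoxb2 had no count in −F and was at least 7.01-fold higher in F, taking 3 counts over the 2 −F libraries as the floor. Hoxc10 had 2 counts in −F, both in replicate 1, and 32 in F, a ratio of 16.0 (4.09 to 138), and Hoxb3 had 3 and 28, a ratio of 9.35 (2.89 to 48.1). No HOX gene was called lower by edgeR or by DESeq2, and 1, Hoxc13, had an unadjusted p under 0.05 in that direction (log2 fold change −0.58 ± 0.23, adjusted p = 0.052). Hoxc4, Hoxb13, Hoxd8, Hoxd9 and Hoxd13, with log2 fold changes of 0.54, 0.87, 0.90, −0.27 and −0.17, also were not called. Without F replicate 1 the count was 10, with Hoxa10, Hoxb4, Hoxc5 and Hoxd11 lost, and without −F replicate 1 it was 11, with Hoxa9, Hoxc5 and Hoxd11 lost. Without −F replicate 2, Hoxa10 and Hoxc5 were lost and Hoxc4 was gained. Without F replicate 2, Hoxa9 and Hoxd11 were lost and Hoxa7 was gained. A fit to these 2 groups alone tested 12 HOX genes and called 8 of them.

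The comparison of F2i against F asked what 2i changes on feeders in serum, and 12 of the 24 tested HOX genes were higher with 2i, 7 of them in HoxC. They were Hoxc4, Hoxc5, Hoxc6, Hoxc8, Hoxc9, Hoxc12 and Hoxc13, with Hoxa9, Hoxb9, Hoxd8, Hoxd9 and Hoxd13. Over all genes tested, 6.44% were called higher and 7.00% lower. The largest rise was in Hoxc12, with 1 count in F and 30 in F2i, a ratio of 30.2 (95% exact interval 5.03 to 1230). Hoxc13 rose by 3.02 ± 0.16 on the log2 scale (edgeR, adjusted p = 8.1e-13), Hoxd9 by 2.19 ± 0.40 (adjusted p = 8.1e-05), Hoxb9 by 1.75 ± 0.15 (adjusted p = 2.0e-09) and Hoxc4 by 1.72 ± 0.26 (adjusted p = 1.1e-05). The median log2 fold change of the tested HOX genes was 0.99, against -0.0028 over all genes tested.

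Neither edgeR nor DESeq2 called a HOX gene lower in F2i than in F. In edgeR 1 gene had an adjusted p under 0.05 in that direction and missed the call on fold change alone. When F replicate 2 was left out, 1 gene was called lower, and 10 genes were called higher, with Hoxa9, Hoxc5 and Hoxc9 lost and Hoxc10 gained. Without F replicate 1 the count was 9 (Hoxa9, Hoxc8 and Hoxd8 lost), without F2i replicate 1 it was 9 (Hoxa9, Hoxc5, Hoxc9 and Hoxd8 lost, Hoxc10 gained), without F2i replicate 2 it was 10 (Hoxa9 and Hoxc5 lost), and DESeq2 called 7.

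The comparison of NB2i against F2i kept 2i and took away feeders and serum, and here HOX genes went both ways. Of the 24 tested, 11 were lower in NB2i (Hoxa5, Hoxa9, Hoxa10, Hoxb2, Hoxb3, Hoxb8, Hoxb9, Hoxc5, Hoxc6, Hoxc8 and Hoxd11), beside 13.3% of all genes tested. Another 3 were higher (Hoxb13, Hoxc4 and Hoxc12), beside 6.01% of all genes tested. Hoxc8 fell by 3.61 ± 0.35 on the log2 scale (edgeR, adjusted p = 8.9e-09), Hoxc6 fell by 3.10 ± 0.50 (adjusted p = 1.4e-05) and Hoxb9 fell by 1.45 ± 0.15 (adjusted p = 1.7e-08). Without NB2i replicate 2 the log2 fold changes of Hoxc8 and Hoxc6 were −4.29 and −5.14, and without NB2i replicate 1 that of Hoxc6 was −2.28. Hoxb3 and Hoxb2 had no counts in NB2i and were at least 13.9-fold and 10.8-fold lower. The median log2 fold change of the tested HOX genes was −0.79, against 0.018 over all genes tested. Hoxa5 had 2 counts in NB2i and 27 in F2i, 13.7-fold lower (95% exact interval 3.45 to 119).

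Hoxc12 rose by 2.78 ± 0.26 on the log2 scale (edgeR, adjusted p = 5.0e-09), Hoxc4 by 1.52 ± 0.17 (adjusted p = 1.3e-07) and Hoxb13 by 1.40 ± 0.39 (adjusted p = 0.0036). Hoxc13 was higher by 0.51 ± 0.10 (adjusted p = 0.00016), under the fold threshold. Among the genes under the count filter, Hoxa11 had 26 rounded counts in F2i and none in NB2i, at least 8.81-fold lower. The count of lower genes was 8 without F2i replicate 1 (Hoxa9, Hoxc5 and Hoxd11 lost) or without F2i replicate 2 (Hoxa9, Hoxa10 and Hoxd11 lost). It was 10 without NB2i replicate 1 (Hoxa10 and Hoxc5 lost, Hoxd8 gained) or without NB2i replicate 2 (Hoxa9 lost), and DESeq2 did not call Hoxb13 higher.

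The last comparison set the 2 feeder-free cultures against each other, so that medium, coating and 2i differ together and cannot be told apart. In NB2i against −F, 12 of the 24 tested HOX genes were higher (Hoxa9, Hoxb4, Hoxb9, Hoxb13, Hoxc4, Hoxc5, Hoxc9, Hoxc10, Hoxc12, Hoxc13, Hoxd8 and Hoxd9), beside 11.1% of all genes tested. Hoxc12 went from 1 count to 210, a ratio of 208 (95% exact interval 37.0 to 8270). Hoxc4 rose by 3.78 ± 0.23 (edgeR, adjusted p = 3.2e-12), Hoxc13 by 2.96 ± 0.14 (adjusted p = 2.5e-14), Hoxb9 by 2.48 ± 0.25 (adjusted p = 9.3e-09) and Hoxb4 by 2.29 ± 0.41 (adjusted p = 3.7e-05) on the log2 scale. Without −F replicate 2 the value of Hoxc4 was 4.505. The median over the tested HOX genes was 1.63, or 1.97 without the 3 genes that had at most 3 counts in both groups, against 0.0099 over all genes tested. Of the 24, 11 passed the count filter on the NB2i and −F libraries alone, and the others entered with counts from F or F2i.

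Neither edgeR nor DESeq2 called a HOX gene lower in NB2i than in −F, and 0 had an unadjusted edgeR p under 0.05 in that direction. Over all genes tested, edgeR called 16.1% lower. Many tested HOX genes had few counts in −F and so little room to be called lower. Hoxd1, a gene under the count filter with 16 counts in −F and none in NB2i, was at least 5.37-fold lower. Hoxa9, Hoxc5 and Hoxd8 lost their calls when single libraries were left out, where the count of higher genes was 11 or 12. It was 12 without −F replicate 1 (Hoxa9 and Hoxc5 lost, Hoxa10 and Hoxc8 gained), without −F replicate 2 (Hoxd8 lost, Hoxc6 gained) and without NB2i replicate 1 (Hoxa9 and Hoxd8 lost, Hoxa10 and Hoxc8 gained), and 11 without NB2i replicate 2 (Hoxc5 lost).

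**Figure D4:**
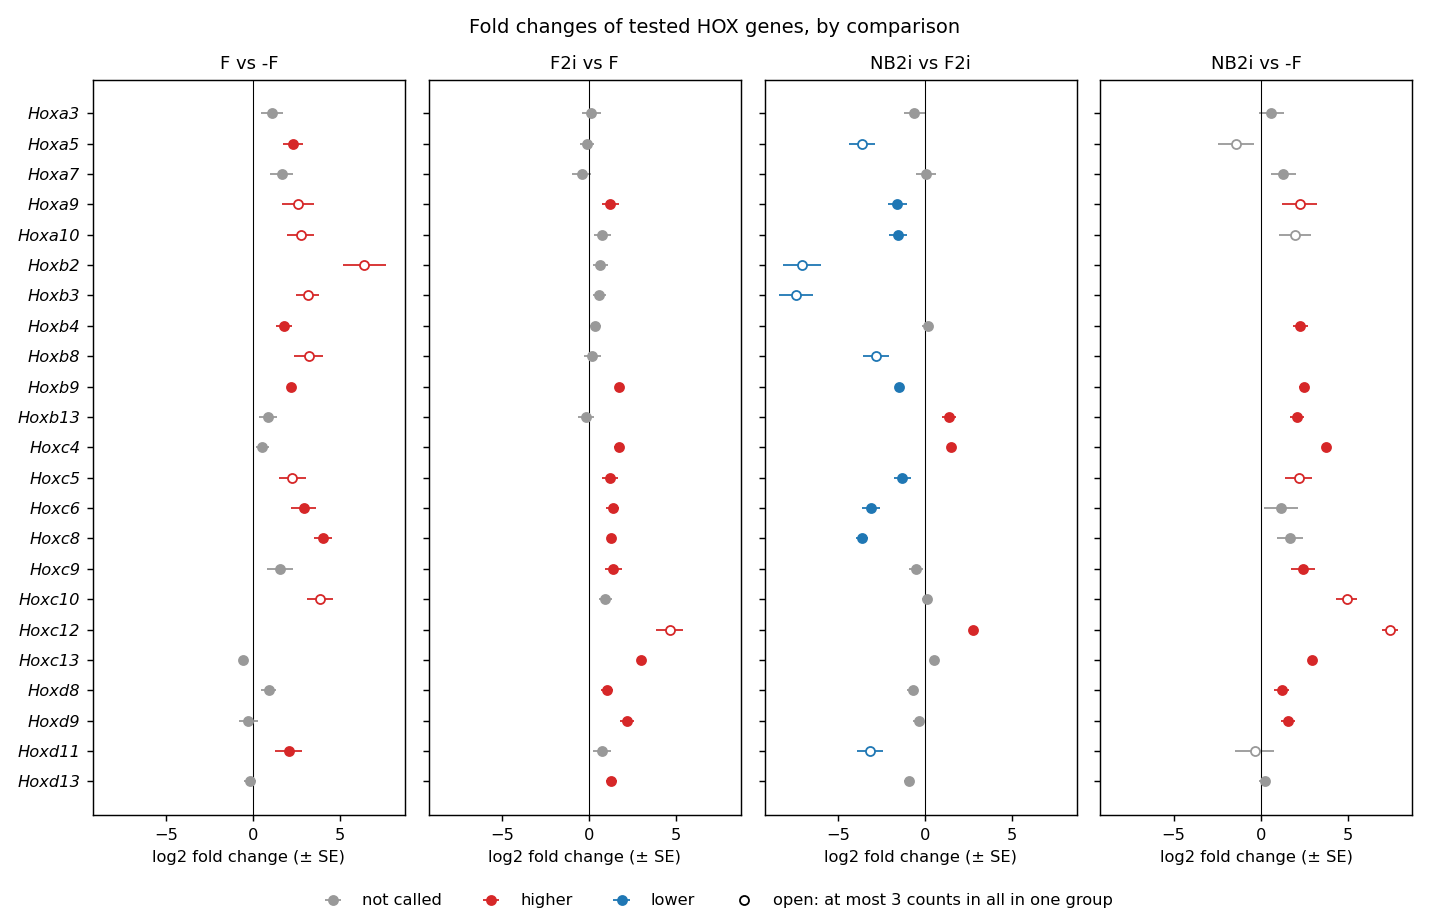
Log2 fold change with its standard error for tested HOX genes in the 4 comparisons, from edgeR. Red points were called higher, blue points lower and grey points not called, and open points have at most 3 counts in all in one of the groups, so that their fitted fold is uncertain. Points with at most 3 counts in both groups are left out. In NB2i against F2i the points split to both sides, with Hoxc12, Hoxc4 and Hoxb13 on the right.

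Comparisons that share no samples can be set beside each other. All 11 HOX genes lower in NB2i than in F2i were among the 14 that were higher in F than in −F, which is 78.6% of the 14. Over all genes tested, 594 genes were in both lists, 69.5% of those higher in F and 29.1% of those lower in NB2i. Hoxb4 and Hoxc10 were among the genes higher in F that were not lower in NB2i than in F2i. Of the 12 HOX genes higher in F2i than in F, 9 were also among the 12 higher in NB2i than in −F (Hoxa9, Hoxb9, Hoxc4, Hoxc5, Hoxc9, Hoxc12, Hoxc13, Hoxd8 and Hoxd9), 75.0% of each list. Over all genes tested 611 genes were in both of these lists, 62.0% of the first and 36.0% of the second. Genes that entered the test only through the groups in which they are high had to differ, so these shares describe the 24 tested members and not all 39.

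Fibroblast transcripts moved with several of these results. All 25 fibroblast markers had counts, and they summed to 169 to 178 FPKM in −F, 748 to 772 in F, 1475 to 1499 in F2i and 399.7 to 422 in NB2i. Fn1, which ESCs also express, made up 346 FPKM of the NB2i mean, and Postn, Lum, Dcn, Fap and S100a4 were at 0 in both NB2i samples, as Lum was in −F. In F against −F, 23 of the 25 were higher, beside 5.59% of all genes tested. In NB2i against F2i, 24 were lower, beside 13.3% of all genes tested. In F2i against F, 11 were higher and 1 was lower, beside 6.44% and 7.00%, with a median log2 fold change of 0.72. Col1a1, the main fibrillar collagen chain, stood at 2.53, 67.8, 244 and 0.53 FPKM in −F, F, F2i and NB2i, and Vim, Tagln and Acta2 also rose from −F to F (17.9 to 138, 29.7 to 92.5 and 4.93 to 63.2 FPKM). Their part in the HOX results was not tested.

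The share of a gene's counts that came from the 4 libraries with feeders was computed for the HOX genes. An equal level in all libraries gives a share near the middle of the scale, and the fibroblast markers had a median share of 98.4%. Among the tested members, Hoxb2 (100%), Hoxb3 (95.8%), Hoxc8 (93.1%), Hoxb8 (89.4%) and Hoxc6 (89.3%) lay at the top. At the bottom lay Hoxc12 (12.8%), Hoxc4 (29.6%), Hoxb13 (39.4%) and Hoxc13 (40.7%). These last 4 genes were higher in both NB2i samples than in both F2i samples. As the share is computed from those same counts, this is not a separate result.

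**Figure D5:**
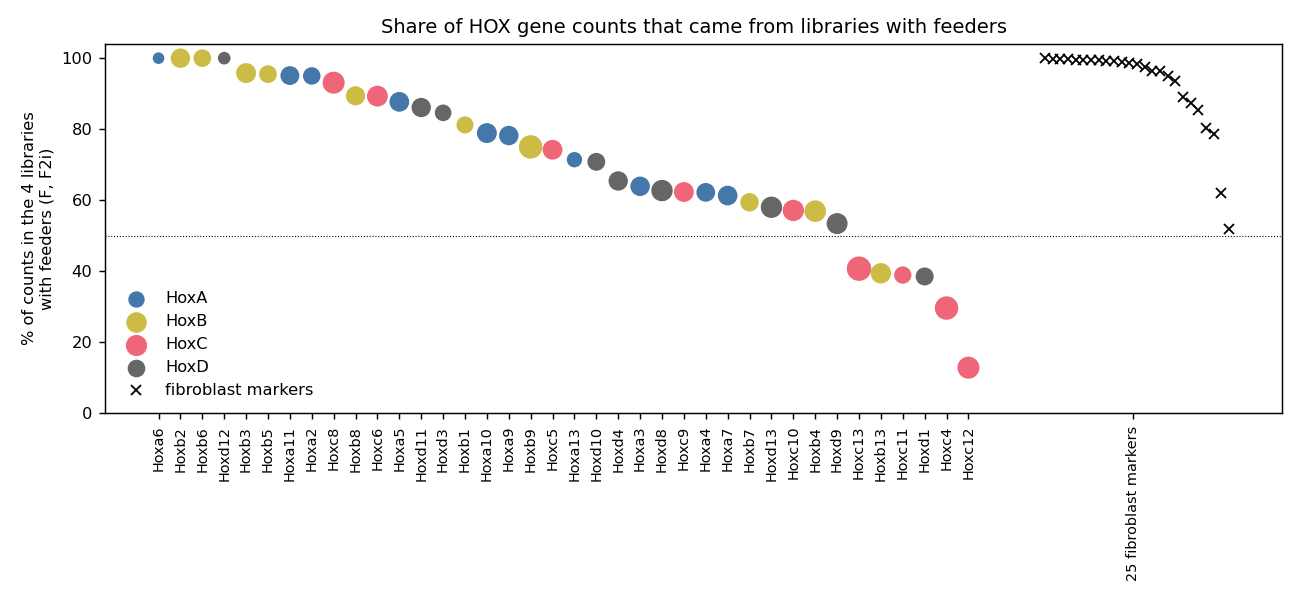
Percent of a HOX gene's counts that came from the 4 libraries with feeders, coloured by cluster, with point area growing with the total count. Crosses are the 25 fibroblast markers and the dotted line is an even split. Hoxc12 lies lowest, at 12.8%, and the fibroblast markers have a median of 98.4%.

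Transcription factors of limb and trunk mesenchyme, another gene group with a role in limb and trunk fibroblasts, went different ways. Of 26 listed, 21 were tested, and 11 were higher in F than in −F, beside 5.59% of all genes tested. In NB2i against F2i 16 were lower, beside 13.3% of all genes tested. Between the feeder-free cultures, NB2i against −F, 3 were higher and 8 lower, beside 11.1% and 16.1% of all genes tested. Prrx1, a limb mesenchyme factor, stood at 0.08, 3.46, 6.02 and 0.075 FPKM in −F, F, F2i and NB2i. Osr2 followed with 0.06, 3.12, 5.40 and 0.40 FPKM. Twist1 (2.54, 2.90, 2.48 and 0.75 FPKM) and Prrx2 (2.18, 2.71, 4.34 and 0.535 FPKM) were not called between F and −F. Tbx15 (0.295, 0.72, 1.59 and 1.755 FPKM) and Tbx18 (0.075, 0.185, 0.97 and 1.135 FPKM) were highest in NB2i, without feeders.

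Other developmental transcription factors that Polycomb holds silent in ESCs were set beside the HOX genes. Of 43 such factors outside the clusters, 23 were tested. In NB2i against −F, 14 were lower and 1 was higher, beside 16.1% and 11.1% of all genes tested. There 12 of 24 HOX genes were higher, and the difference between the lists was not tested. Neurod1, a neuronal factor, fell from 15.5 FPKM in −F to 0.455 in NB2i (log2 fold change −5.01), and Olig1, a glial factor, fell from 46.1 to 16.4 FPKM (−1.42). In F2i against F, 5 were lower and 2 were higher, beside 7.00% and 6.44% of all genes tested. Pax6, an eye and forebrain factor, stood at 1.49 FPKM in F and 0.09 in F2i. In F against −F, 4 were higher and 1, Olig2, was lower, beside 5.59% and 1.65% of all genes tested. Among the 4 were Irx1 (0.225 to 1.14 FPKM), Gata6 (0.60 to 1.91 FPKM) and Pax6 (0.535 to 1.49 FPKM).

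Of 13 genes known to act upstream of the HOX clusters, all were tested, and 2 were higher in F than in −F, beside 5.59% of all genes tested. In NB2i against F2i, 5 were lower and 1 was higher, beside 13.3% and 6.01% of all genes tested. Cdx1, a caudal-type factor that activates HOX genes, stood at 0.955 FPKM in −F, 4.27 in F, 10.3 in F2i and 8.77 in NB2i. It was higher in F than in −F by 2.18 on the log2 scale and higher in F2i than in F by 1.30, both called by edgeR. Rarg, a retinoic acid receptor, stood at 46.7, 45.8, 19.9 and 3.61 FPKM in the same order, and it was called lower in F2i than in F and again in NB2i than in F2i. Rarb, another retinoic acid receptor and itself a target of retinoic acid, was higher in F than in −F (0.055 and 0.325 FPKM). Kmt2b and Men1, of the complexes that methylate histone H3 at active HOX genes, and Rara were not called in any comparison, and Kdm6b, which removes the Polycomb mark, was higher in NB2i than in −F (22.7 and 11.4 FPKM).

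The core Polycomb subunits Ezh2, Eed and Suz12 lay between 72.8 and 96.5 FPKM in all 4 groups, and none of the 3 was called in any comparison by edgeR. Of 11 tested members of Polycomb repressive complex 2, 1 was lower in F2i than in F, beside 7.00% of all genes tested. It was the accessory subunit Phf19 (1.44 FPKM in F2i and 5.06 in F). In Polycomb repressive complex 1, Phc1 fell from 224 FPKM in −F to 58.3 in NB2i. Rnf2, its catalytic subunit, lay between 37.4 and 40.3 FPKM. Among the TALE homeodomain cofactors that bind DNA together with HOX proteins, Pbx2 was the most abundant (30.8, 31.4, 18.6 and 15.6 FPKM in −F, F, F2i and NB2i) and was not called, while Meis2 rose from 0.15 FPKM in −F to 0.88 in F, and Pknox2 stood at 1.13, 2.12, 6.40 and 8.96 FPKM.

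Genes around the clusters were examined next. Of 20 listed neighbours and cluster noncoding RNAs, 7 were tested, and 1, the noncoding RNA Hotairm1, was called in any comparison. Hibadh and Skap2 beside HoxA, Mtx2 beside HoxD, Snx11 beside HoxB and Smug1 beside HoxC had log2 fold changes of −0.23, 0.46, −0.13, −0.21 and −0.12 in F against −F. In NB2i against F2i they were 0.38, 0.47, 0.0018, 0.048 and 0.73 in the same order. Skap2 stood at 24.0 FPKM in −F and 45.55 in NB2i, under the fold threshold.

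The promoter windows of the HOX genes were rich in CpG. RefSeq start sites (GRCm38.p6) gave 24 windows, each the 250 bases before a start, for 22 of the 39 members, and their median was 12.5 CpG, against 6 over 32851 windows of all genes. At least 10 CpG were found in 62.5% of the HOX windows and 37.8% of all windows. The windows are printed for 3 genes that were higher in NB2i than in −F and whose windows hold no annotated UTR, with each CpG in capitals.
Hoxd8, chr2:74704365-74704614, plus strand: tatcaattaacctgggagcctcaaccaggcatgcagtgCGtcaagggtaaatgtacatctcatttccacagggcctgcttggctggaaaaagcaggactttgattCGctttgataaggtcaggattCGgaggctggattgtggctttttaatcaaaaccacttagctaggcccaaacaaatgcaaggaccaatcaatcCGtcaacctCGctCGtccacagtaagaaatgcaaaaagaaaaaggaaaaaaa
Hoxb4, chr11:96318017-96318266, plus strand: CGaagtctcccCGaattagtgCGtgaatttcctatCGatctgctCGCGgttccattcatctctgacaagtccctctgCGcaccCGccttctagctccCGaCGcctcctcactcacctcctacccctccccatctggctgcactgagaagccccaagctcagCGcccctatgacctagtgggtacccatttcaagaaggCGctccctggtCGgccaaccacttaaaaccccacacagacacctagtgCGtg
Hoxa9, chr6:52227371-52227620, minus strand: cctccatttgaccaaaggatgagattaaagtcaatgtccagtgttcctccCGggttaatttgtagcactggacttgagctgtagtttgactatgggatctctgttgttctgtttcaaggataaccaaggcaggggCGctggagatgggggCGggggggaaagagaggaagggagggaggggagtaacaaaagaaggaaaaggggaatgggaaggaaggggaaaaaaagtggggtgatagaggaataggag

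The Hoxd8 window holds CTTTGAT, the core bound by TCF and LEF factors, at 2 places on the printed strand, 1 on each side of a CpG. Searched on both strands, CTTTGAT was in 1 of the 24 HOX windows (4.2%) and in 3.2% of all windows, and CTTTGAA was in 4.2% and 4.5%. TTTATG, a caudal-type motif, was in 5 HOX windows (20.8%) and in 10.8% of all windows. These are matches of letters in a short window, and binding was not measured.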

How the data were processed

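N33 ESCs in 4 culture conditions, 2 replicates each, were assigned to groups from the labels. From poly-A RNA the authors took 50-base single-end reads, aligned these to mm10 with Bowtie2, estimated gene counts with RSEM, and deposited expected counts and FPKM per gene for each sample. The expected counts deposited by the authors, not normalized, were rounded and tested with edgeR 4.0.16 (TMM, quasi-likelihood, genes of at least 10 counts in at least 2 samples, all 8 samples in 1 fit), adjusted by Benjamini-Hochberg. FPKM values deposited by the authors served for levels. Total expected counts were 20129641 to 20664488 per library. DESeq2 1.42.0, limma 3.58.1, other filters and left-out libraries were alternatives. p-values measure the spread between duplicates only, and a permutation of 2 against 2 could not go below 0.3333. Exact (Clopper-Pearson) intervals cover counting error only. The fit was tested on simulated data. Same-numbered samples did not deviate together (mean r = −0.0145 over 6 pairs of groups).

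The members and gene lists were chosen with earlier results of these data known. HOX genes called in a comparison or reaching a group mean of 0.5 FPKM are given by sample. From the other lists, the 5 genes of highest mean FPKM and up to 3 called genes of largest change in F against −F were named, and Phf19 was named after its values were seen. Homeoboxes came from GENCODE M21 and promoters from RefSeq. Protein sequences were not used here. Some genes that enter the counts and sums are not reported here by name.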

Additional observations from a re-analysis of the deposited data

How the results depend on the processing

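Scaling by DESeq2 size factors left the calls of the HOX genes as they were. With the replicate block the counts were 13 (F against −F, Hoxd11 lost), 11 (F2i against F, Hoxa9 lost), 11 lower and 3 higher (NB2i against F2i) and 11 (NB2i against −F, Hoxa9 lost), and as the numbers did not pair the samples this says nothing of weaker effects. Left-out libraries gave 10 to 13 higher genes in F against −F, 9 to 10 higher and 0 to 1 lower in F2i against F, 8 to 10 lower in NB2i against F2i, and 11 to 12 higher in NB2i against −F. DESeq2 called 11, 7, 8 lower with 2 higher, and 9. A fit to 2 groups alone called 8 of 12 tested HOX genes in F against −F and 9 of 11 in NB2i against −F, as fewer genes passed the count filter. limma on FPKM tested 13 HOX genes, those of at least 0.5 FPKM in 2 samples. With a pseudocount of 1 it called 0 higher in F against −F, 2 in F2i against F, 1 lower in NB2i against F2i and 3 higher in NB2i against −F. With a pseudocount of 0.1 it called 6, 7, 3 and 8. Without a filter, 1 gene each was called lower in F2i against F (Hoxb1) and in NB2i against −F (Hoxd1), and 14 were called lower in NB2i against F2i. The HoxC share was 36.4% in −F and 52.9% in F2i over filtered genes alone, and 46.6% in F2i and 71.4% in NB2i when summed over counts. Single libraries gave HoxC shares of 29.1% to 33.2% in −F, 22.9% to 30.0% in F, 49.3% to 49.9% in F2i and 73.8% to 78.2% in NB2i. Of the values for single HOX genes, 64 lost and 12 gained significance, taken as adjusted p under 0.05 without the fold threshold. The other 848 kept their side of it, or changed sign for a gene not significant in the main fit. None that was significant in the main fit reversed. Depth limits the 15 members under the filter, for which folds are bounds or are not given.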

Other observations

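Markers of early lineages, which the ESC cultures could hold in small numbers, moved in their own directions. Of 8 primitive endoderm markers tested, 5 were higher in F than in −F (Dab2 went from 2.04 to 5.16 FPKM and Foxa2 from 0.035 to 0.275 FPKM), and 4 were lower in F2i than in F. Over all genes tested, 5.59% were called higher in the first of these comparisons and 7.00% lower in the second. Lama1, a basement membrane laminin chain, was higher in NB2i than in F2i (20.8 and 6.88 FPKM), while Col4a1 was lower (0.655 and 25.3 FPKM). Of 5 mesoderm and primitive streak markers tested, 2 were higher in NB2i than in −F and 1 was lower, beside 11.1% and 16.1% of all genes tested. The higher ones were Gsc (0.415 FPKM in −F and 3.17 in NB2i) and T (0.36 and 1.02 FPKM). Among 7 neural markers tested, 2 were higher in F than in −F and 1, Otx2, was lower (5.73 and 12.9 FPKM). Otx2 was also higher in NB2i than in F2i (17.2 and 3.70 FPKM). Among 7 trophoblast markers tested, Krt18 was lower in F than in −F (36.9 and 76.2 FPKM) and 3 were lower in F2i than in F. Of the 10 ESC markers, Klf4 rose from 54.5 FPKM in −F to 200 FPKM in F and Tbx3 from 6.96 to 26.9 FPKM, and Utf1 was lower in F2i than in F (81.6 and 380 FPKM).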
